A study of Mus musculus with 10 samples.

Results

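The genes described here are Unc13a, Rimbp2, Shisa7 and Pianp, whose protein products are best known from synapses. They were chosen by name from 30719 genes in the count table because earlier results on these same libraries showed large differences, so their own differences between genotypes are given as descriptions without a test. The libraries came from whole testes of mice at postnatal day 10, with a background that mixed 129sv and C57Bl. The strain label ends in a number that rises by 1 from sample to sample, and this number was not used. FXR-/- mice, which lack FXRα, the bile acid receptor encoded by Nr1h4, were set against wild-type (WT) mice, with 5 individual mice and 5 libraries of each genotype on 1 flowcell. The question was which testis transcripts differ without the receptor. The labels state no other allele or agent, and they do not say which piece of Nr1h4 was removed or whether genotypes were littermates. FXR-/- libraries are numbered 8, 9, 10, 11 and 12, and WT libraries 3, 4, 5, 6 and 9, as in the labels.

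At a synapse, an action potential opens voltage-gated calcium channels at the active zone of the sending neuron, and calcium triggers fusion of vesicles that were already docked and primed. Unc13a and Rimbp2 encode parts of that release site, whereas Shisa7 acts on the receiving side and Pianp is a membrane ligand. The testis uses related machinery for secretion, and its germ and somatic cells express several ion channels and receptors named for neurons. In a whole-tissue library, fewer cells of a type and less RNA per cell cannot be told apart.

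The 250 bases upstream of the annotated start of each gene are shown because the receptor missing from these mice is a DNA-binding factor and its motif can be looked for there. They are from RefSeq on GRCm38.p6, run 5′ to 3′ on the gene's own strand and end just before the start. Unc13a lies on the minus strand at chr8:71671758-71672007, Rimbp2 on the minus strand at chr5:128953487-128953736, Shisa7 on the minus strand at chr7:4844697-4844946 and Pianp on the plus strand at chr6:124996470-124996719, the first of 3 windows listed for it. Capitals mark matches, on either strand, to the GC box GGGCGG and to TGACG, the half-site of the cAMP response element.
Unc13a: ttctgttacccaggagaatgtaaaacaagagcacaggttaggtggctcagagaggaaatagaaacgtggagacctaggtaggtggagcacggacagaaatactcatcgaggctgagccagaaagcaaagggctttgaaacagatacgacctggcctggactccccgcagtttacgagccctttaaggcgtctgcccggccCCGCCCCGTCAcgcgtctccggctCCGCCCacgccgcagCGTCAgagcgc
Rimbp2: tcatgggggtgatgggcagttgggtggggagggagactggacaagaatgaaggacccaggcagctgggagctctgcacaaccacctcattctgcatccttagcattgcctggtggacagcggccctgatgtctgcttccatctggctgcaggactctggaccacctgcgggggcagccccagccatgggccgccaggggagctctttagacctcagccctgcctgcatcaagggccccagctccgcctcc
Shisa7: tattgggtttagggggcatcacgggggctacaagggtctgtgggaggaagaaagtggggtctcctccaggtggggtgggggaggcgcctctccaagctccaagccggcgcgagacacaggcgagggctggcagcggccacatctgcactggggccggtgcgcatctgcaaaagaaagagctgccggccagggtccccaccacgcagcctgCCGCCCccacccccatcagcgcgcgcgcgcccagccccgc
Pianp: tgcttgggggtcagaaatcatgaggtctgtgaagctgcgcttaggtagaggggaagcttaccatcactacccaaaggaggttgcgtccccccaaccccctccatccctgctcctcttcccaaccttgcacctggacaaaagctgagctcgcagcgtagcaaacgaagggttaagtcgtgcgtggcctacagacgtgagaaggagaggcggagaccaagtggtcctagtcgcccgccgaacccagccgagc
The Unc13a window held GC boxes at -50 and -26 and TGACG at -44 and -11, counted in bases from the start, all on the opposite strand, and the TGACG at -44 began where the GC box at -50 ended, with no shared base. The Shisa7 window held 1 GC box, at -40 on the opposite strand, and the Rimbp2 and Pianp windows held neither motif. Over all 32851 RefSeq windows of this length, 32.7% held a GC box and 17.8% held TGACG.

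Neither strand of the 4 windows held AGGTCANTGACCT, the inverted repeat that FXR binds with its partner RXR, which was found in 0.00609% of all windows. The nuclear receptor half-site AGGTCA (14.0% of all windows), the SF-1 site CAAGGTCA (1.33%), the full cAMP response element TGACGTCA (1.55%), the TATA box TATAAA (12.4%) and the RE1 element of the neuronal repressor REST (0.0548%) were not in these letters either. The SF-1 site contains the half-site, and the full cAMP element contains TGACG. GC content was 58.0% for Unc13a, 63.6% for Rimbp2, 69.6% for Shisa7 and 58.8% for Pianp, against a median of 52.4% over all windows. Unc13a and Shisa7 each had 18 CpG dinucleotides and Pianp had 13, whereas Rimbp2 had 4 and the median window had 6. The last 26 bases of the Pianp window fall in an exon of the gene in the GENCODE M21 annotation.

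Unc13a (ENSMUSG00000034799, chr8:71624417-71671757, minus strand, mm10) encodes Munc13-1, which primes synaptic vesicles for release. Its level in CPM, the counts of a gene scaled to a common library total, was 11.4, 16.9, 15.1, 15.8 and 17.2 in FXR-/- libraries 8 to 12, against 31.3, 28.6, 31.0, 28.7 and 28.4 in WT libraries 3, 4, 5, 6 and 9. All FXR-/- libraries lay below all WT libraries, and library 8 stood below the other FXR-/- libraries. The means were 15.3 ± 2.33 CPM in FXR-/- and 29.6 ± 1.41 CPM in WT (SD, n = 5 each), a fitted log2 fold change of -0.99 (SE 0.0996) or a 1.99-fold lower level. This was the best counted of the lower genes, with 377 to 658 counts per FXR-/- library and 962 to 1061 per WT library. Of 18559 tested genes, 122 had a lower fitted log2 fold change.

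At its downstream end Unc13a overlaps Colgalt1, a collagen galactosyltransferase gene on the opposite strand, by 495 bases. The sources used here do not say whether reads were counted by strand, so reads from that stretch could have been given to either gene. Colgalt1 had 216 ± 20.8 CPM in FXR-/- and 279.5 ± 11.8 CPM in WT libraries (SD, n = 5 each), and fell (log2 fold change -0.40, edgeR quasi-likelihood adjusted p = 0.00362). The share of Unc13a counts that comes from the overlap was not tested.

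Rimbp2 (ENSMUSG00000029420, chr5:128757791-128953486, minus strand) encodes RIM-binding protein 2, which ties RIM scaffolds to calcium channels at the active zone. It had 1.79, 1.81, 1.97, 1.34 and 1.39 CPM in FXR-/- libraries 8 to 12, against 12.5, 8.43, 5.82, 4.63 and 4.41 CPM in WT libraries 3, 4, 5, 6 and 9. The genotypes did not overlap, yet the WT libraries themselves spanned 2.83-fold, with library 3 at the top and libraries 6 and 9 at the bottom. Means were 1.66 ± 0.278 CPM in FXR-/- and 7.15 ± 3.37 CPM in WT (SD, n = 5 each), for a fitted log2 fold change of -2.14 (SE 0.285), 4.42-fold lower. These levels rest on 51 to 78 counts per FXR-/- library and 149 to 422 per WT library.

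Shisa7 (ENSMUSG00000053550, chr7:4825552-4844696, minus strand) encodes an auxiliary subunit of AMPA-type glutamate receptors that also associates with GABA-A receptors. FXR-/- libraries 8 to 12 had 0.908, 0.850, 0.832, 0.868 and 0.993 CPM, against 6.79, 4.83, 4.02, 4.04 and 3.46 CPM in WT libraries 3, 4, 5, 6 and 9. The FXR-/- libraries were nearly level, the WT libraries were spread, and the lowest WT library was 3.48 times the highest FXR-/- library. The means were 0.890 ± 0.0642 CPM in FXR-/- and 4.63 ± 1.30 CPM in WT (SD, n = 5 each), with a fitted log2 fold change of -2.41 (SE 0.187), 5.32-fold lower. A total of 19 tested genes had a lower fitted value. The counts were 30 to 38 per FXR-/- library and 117 to 230 per WT library, so the FXR-/- level is the least precisely counted of the 4.

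Pianp (ENSMUSG00000030329, chr6:124996694-125003096, plus strand) encodes a membrane protein that is a ligand of the paired immunoglobulin-like receptor PILRα and also binds GABA-B receptors. It was the 1 gene of the 4 at a higher level in FXR-/- libraries, which had 39.7, 38.5, 23.9, 20.9 and 19.9 CPM (8 to 12), against 5.96, 8.28, 6.65, 6.68 and 4.85 CPM in WT libraries 3, 4, 5, 6 and 9. The genotypes did not overlap, and within FXR-/- libraries 8 and 9 stood well above 10, 11 and 12. Means were 28.6 ± 9.74 CPM in FXR-/- and 6.48 ± 1.25 CPM in WT (SD, n = 5 each), a fitted log2 fold change of 2.1 (SE 0.218), 4.29-fold higher. Counts ran from 763 to 1406 per FXR-/- library and from 164 to 290 per WT library, and 76 tested genes had a higher fitted value.

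**Figure D1:**
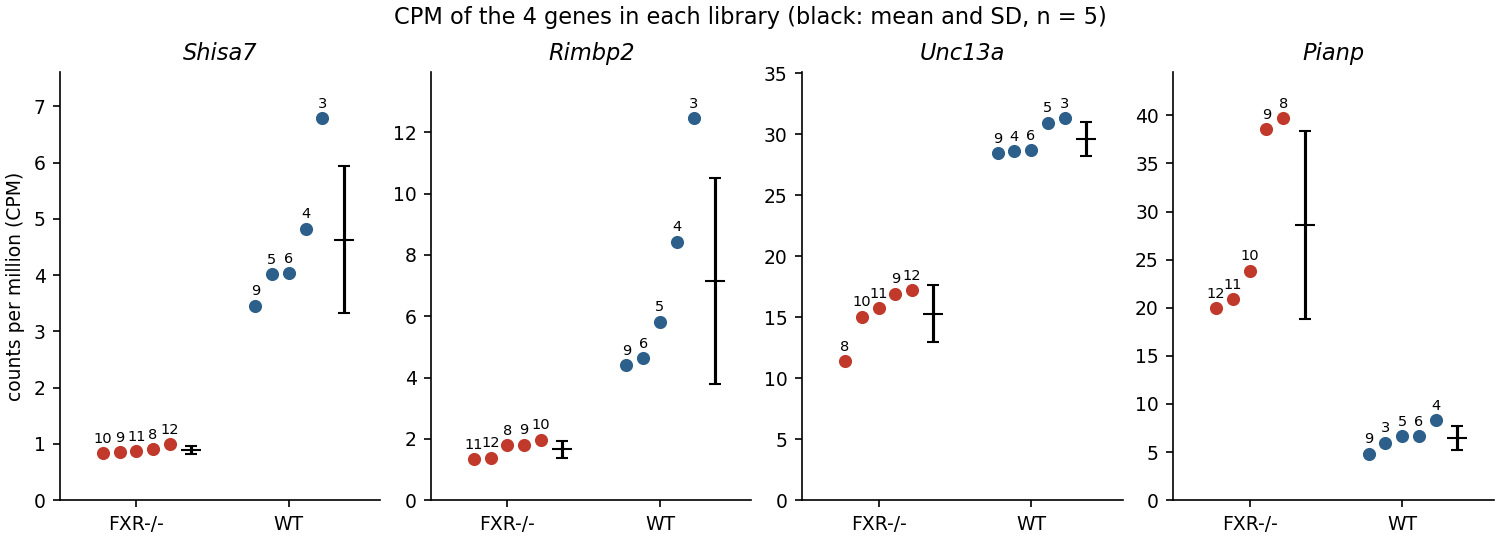
CPM (vertical axis, from 0) of Shisa7, Rimbp2, Unc13a and Pianp in each library, numbered as in the labels, with FXR-/- left of WT in each panel and the mean and SD of 5 libraries in black. Shisa7, Rimbp2 and Unc13a lie lower in every FXR-/- library than in any WT library and Pianp lies higher.

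For all 4 genes the CPM ranges of the genotypes were apart, as they were for 12% of tested genes (4.63% with FXR-/- lower, as for 3 of the 4, and 7.35% with FXR-/- higher). For 3 of the 4 the fitted fold was at least 4, as it was for 0.598% of tested genes. CPM ranges were compared on library totals alone, without the scaling factors (TMM) of the fit. Those factors were 0.997 to 1.028 in FXR-/- and 0.981 to 0.993 in WT libraries. Since the genes were picked for this contrast, nothing is read from the shares above. Per kilobase of annotated exon, which allows genes to be compared, FXR-/- libraries had 10.0 ± 3.42 CPM per kb of Pianp, 1.21 ± 0.184 of Unc13a, 0.209 ± 0.0350 of Rimbp2 and 0.134 ± 0.00966 of Shisa7. WT libraries had 2.27 ± 0.438 CPM per kb of Pianp, 2.35 ± 0.112 of Unc13a, 0.901 ± 0.425 of Rimbp2 and 0.697 ± 0.196 of Shisa7 (SD, n = 5 each). In WT, Pianp and Unc13a were within their spread of each other, and so were Rimbp2 and Shisa7, whereas in FXR-/- each step from Pianp down to Shisa7 exceeded the SDs. By WT level per kb, Shisa7 exceeded 21.4% of tested genes, Rimbp2 24.9%, Pianp 37.3% and Unc13a 37.7%. In WT all 4 thus lay below the median tested gene, and their FXR-/- levels were not ranked.

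Rimbp2 was the most spread among WT mice, with an SD of 0.63 on the log2 CPM scale, above that of 98.8% of genes of like level, where the median SD was 0.16. Shisa7 had an SD of 0.37 in WT, above 90.9% of genes of like level, but 0.09 in FXR-/-, above 1.05% of them. The FXR-/- value rests on 30 to 38 counts per library, so it says little about the spread between mice. Pianp was spread among FXR-/- mice, with an SD of 0.48 that was above 98.9% of genes of like level, and had an SD of 0.27 in WT, above 83.8% of them. Unc13a had an SD of 0.25 in FXR-/-, above 87.0% of like genes, which included the low library 8, and 0.07 in WT. These percentages describe 5 libraries and were not tested.

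Among WT libraries, Rimbp2 and Shisa7 were highest where meiotic transcripts were lowest. The summed level of 18 meiotic prophase markers, such as the synaptonemal complex genes Sycp1 and Sycp3, was 1235, 1365, 1335, 1760.2 and 2030.2 CPM in FXR-/- libraries 8 to 12, against 754, 1067, 1498, 1764 and 1561 CPM in WT libraries 3, 4, 5, 6 and 9. WT libraries 3 and 4, lowest in these markers, were the highest for Rimbp2 and Shisa7, and WT library 9 was the lowest for both. In FXR-/-, Pianp and Rimbp2 were lowest in libraries 11 and 12, which had the most meiotic marker RNA. Shisa7 ran from 0.832 to 0.993 CPM in FXR-/-, on 30 to 38 counts per library. Unc13a ran the other way in FXR-/-, lowest in library 8 (11.4 CPM), which had the least marker RNA, and highest in library 12 (17.2 CPM). In WT, Pianp was lower in library 3 (5.96 CPM) than in libraries 5 and 6 (6.65 and 6.68 CPM). Unc13a in WT ran only from 28.4 to 31.3 CPM. A fit that also held the mean log2 CPM of these markers, in place of their sum, was added once the data had been seen. In that fit the log2 fold changes were -1.73 for Rimbp2, -2.22 for Shisa7, -1.02 for Unc13a and 2.21 for Pianp. As for Pianp, some other marker sums were highest in FXR-/- libraries 8 and 9, and others were not. Erythroid markers summed to 121, 103, 44.0, 46.4 and 38.6 CPM in FXR-/- libraries 8 to 12 and 29.3 to 60.0 CPM in WT. Undifferentiated spermatogonia markers summed to 812, 720, 621, 650 and 633 CPM in FXR-/- libraries 8 to 12 and 675 to 752 CPM in WT. The part of the proportion of meiotic or other cells in the spread within a genotype was not tested.

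**Figure D2:**
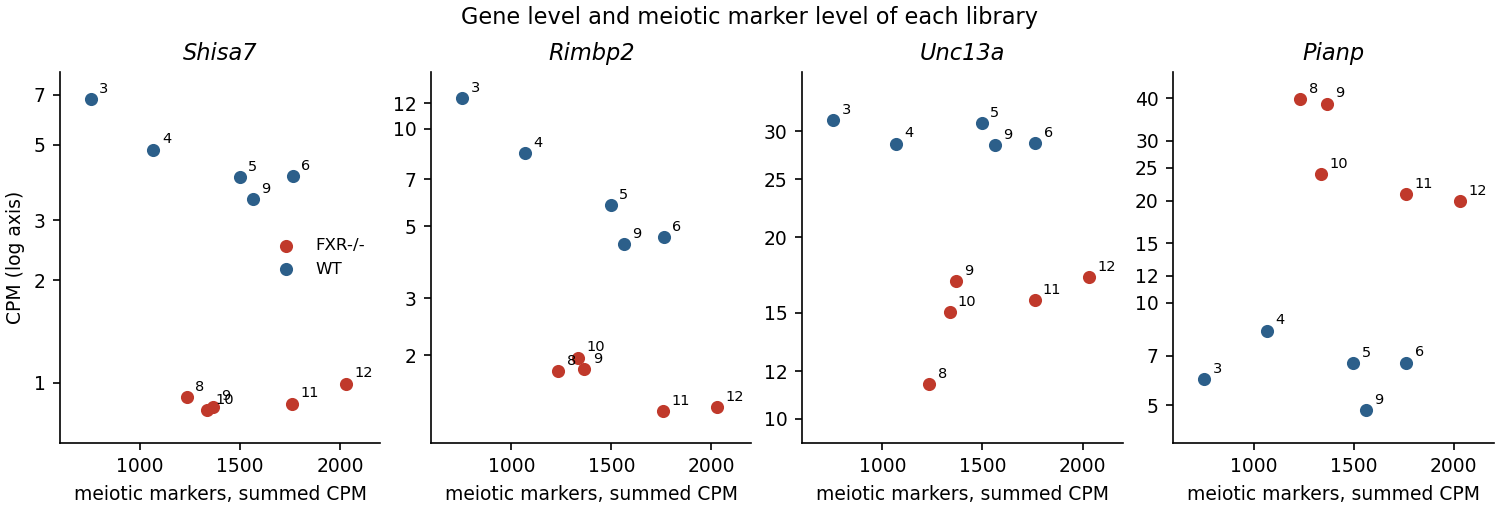
CPM of each gene (vertical, log axis) against the summed CPM of 18 meiotic prophase markers (horizontal) in the same library, with FXR-/- in red and WT in blue and each library numbered. Among WT libraries, Rimbp2 and Shisa7 are highest in libraries 3 and 4, which have the least marker RNA, and lowest in library 9. Among FXR-/- libraries, Unc13a is lowest in library 8, which has the least marker RNA of that genotype. The genes were chosen for the gap between genotypes.

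Markers of neurons were at low levels in both genotypes. The counts of called markers stand beside 13.9% of all tested genes (6.17% higher and 7.71% lower in FXR-/-). Of 17 neuron markers, 13 passed the filter on low counts, of which 0 were higher and 1, the neurofilament gene Nefm, was lower in FXR-/- (log2 fold change -0.69, edgeR adjusted p = 0.0290, a call lost when any 1 of 4 libraries was left out). Their summed level was 44.4 to 53.9 CPM in FXR-/- and 42.0 to 48.3 CPM in WT libraries. The sympathetic neuron genes Th and Dbh were near 0, at means of 0.0581 and 0.0674 CPM in FXR-/- and 0.0529 and 0.0419 CPM in WT. Schwann cell markers summed to 192 to 217 CPM in FXR-/- and 207 to 246 CPM in WT, with 1 of 10 lower and 0 higher, and neuroendocrine markers to 7.93 to 13.0 CPM in FXR-/- and 6.44 to 10.7 CPM in WT, with 1 of 5 tested higher (Scg5). Much of the neuron sum was Nefh, another neurofilament gene, at 22.1 CPM in FXR-/- and 18.4 CPM in WT (edgeR adjusted p = 0.186).

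Markers of some other cell types differed between genotypes, again beside 13.9% called over all tested genes. Of 12 Sertoli cell markers 8 were lower and 1 was higher. Their summed level was 3095 to 4299 CPM in FXR-/- and 4257 to 5267 CPM in WT libraries. FXR-/- library 8, the lowest in Unc13a, was the lowest here. Within FXR-/-, it was also the lowest for Leydig cell markers, at 220 CPM, with the others at 406 to 498 CPM. Of 6 Leydig cell markers 0 were higher and 1 was lower. Meiotic, macrophage, neuroendocrine and adipocyte markers were lowest in that FXR-/- library too. Neuron, peritubular myoid, undifferentiated spermatogonia and erythroid markers were highest in it. Of 6 peritubular myoid cell markers 0 were called by edgeR's test, and their summed level was 925 to 1258 CPM in FXR-/- and 912 to 1103 CPM in WT. Adipocyte markers (8 of 11 higher, summed 217 to 1278 CPM in FXR-/- and 76.1 to 219 CPM in WT) and epididymis and rete testis markers (10 of 11 higher, 139 to 206 CPM in FXR-/- and 80.9 to 104 CPM in WT) were at higher levels in FXR-/- libraries. Adipocyte markers were highest in FXR-/- libraries 9 and 10, and without these the fitted values were -1.05 for Unc13a, -2.30 for Rimbp2, -2.37 for Shisa7 and 2.0 for Pianp. The part of these cell types in the level of the 4 genes was not tested. Depth was 33037427 to 39655170 counts in FXR-/- and 32330029 to 35006180 in WT libraries. Nr1h4 itself had 8, 9, 11, 11 and 13 counts in FXR-/- libraries 8 to 12. In WT libraries 3, 4, 5, 6 and 9 it had 15, 15, 13, 14 and 26 counts. That is 0.242 to 0.340 CPM in FXR-/- and 0.402 to 0.769 CPM in WT (log2 fold change -0.84, SE 0.234, edgeR adjusted p = 0.0347). Counts this low limit the precision of that value.

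Among other genes around the synapse, changes were of both signs and mostly smaller. Of 231 genes in 11 lists, 1 of which holds the nuclear REST repressor complex and not synaptic proteins, 203 could be tested, 21 were higher and 16 lower in FXR-/- (18.2% called, edgeR's quasi-likelihood test, adjusted p under 0.05), beside 13.9% of all tested genes (6.17% higher and 7.71% lower). Of all called genes 44.5% were higher, and 61.5% were with library totals alone in place of TMM factors. The listed genes' median log2 fold change was 0.05, against 0.01 over all tested genes, and 8 were called with a change of at least 2-fold. Of these, Gabrg1 (log2 fold change 2.09), Grin2c (1.77), Gabra2 (1.6), Rab3c (1.5), Synpr (1.13), Shisa9 (1.05) and Lrrtm1 (1.01) were higher in FXR-/-. Cacng5 (-1.36) was lower. Each of these changes was larger in size than that of Unc13a (-0.99). The Gabrg1 call was lost when any 1 of 7 libraries was left out. A total of 27 fell below the filter on low counts. The p-values set the genotype difference against the spread between these mice. Of the 37 calls, 16 held whichever library was left out, and the count was 20 without FXR-/- library 11, 21 without FXR-/- library 12, 23 without WT library 4 and 24 without WT library 9.

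In the active zone list, 23 genes besides Unc13a and Rimbp2 were tested, of which 1 was higher and 2 were lower, with a median of 0.10. Rims4, a short RIM protein of the active zone, had 51.4, 46.5, 57.3, 55.4 and 51.2 CPM in FXR-/- libraries 8 to 12, against 75.6, 94.0, 112, 88.3 and 103 CPM in WT libraries 3, 4, 5, 6 and 9. The genotypes did not overlap, and it fell to 52.4 ± 4.19 CPM in FXR-/-, against 94.6 ± 14.0 CPM in WT (SD, n = 5 each, log2 fold change -0.89, edgeR adjusted p = 0.000175). Here WT library 3 was the lowest WT library, whereas it was the highest for Rimbp2. The scaffold gene Lin7c was 114 CPM in FXR-/- and 100.1 CPM in WT (log2 fold change 0.15, edgeR adjusted p = 0.0287), a call lost when any 1 of 6 libraries was left out.

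Of the other Munc13 genes 1 was lower and 2 did not pass. Unc13b, which encodes Munc13-2 and was the most abundant member per kb, fell to 347 ± 18.9 CPM in FXR-/-, against 463 ± 43.2 CPM in WT (SD, n = 5 each, log2 fold change -0.45, edgeR adjusted p = 0.00154). Per kb of exon it stood at 15.3 CPM in FXR-/- and 20.3 CPM in WT, well over Unc13a. Unc13c had 2.49 ± 0.186 CPM in FXR-/- and 2.06 ± 0.293 CPM in WT and did not pass (log2 fold change 0.24, edgeR adjusted p = 0.218). Unc13d, known for granule release in blood cells, had 15.7 ± 0.774 CPM in FXR-/- and 17.2 ± 1.17 CPM in WT and did not pass either (log2 fold change -0.16, edgeR adjusted p = 0.127). Of the relatives of Rimbp2, Tspoap1 (log2 fold change 0.21, edgeR adjusted p = 0.203) and Rimbp3 (0.14, edgeR adjusted p = 0.773) did not pass.

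In the vesicle fusion machinery, 2 of 36 tested genes were higher and 2 lower, with a median of 0.00. Among these were the syntaxins Stx3 (log2 fold change 0.25, edgeR adjusted p = 0.0441) and Stx1a (-0.21, adjusted p = 0.0483) and the calcium sensor Doc2b (-0.43, adjusted p = 0.0364). The call was lost when any 1 of 8 libraries (Stx1a and Doc2b) or 10 libraries (Stx3) was left out. Of 26 vesicle proteins, 5 were higher and 2 lower, with a median of 0.11. Rab3d, a small GTPase of regulated secretion, fell to 19.7 ± 0.548 CPM in FXR-/-, against 27.8 ± 1.23 CPM in WT (SD, n = 5 each, log2 fold change -0.53, edgeR adjusted p = 5.5e-05). Its relative Rab3c rose to 0.790 ± 0.268 CPM in FXR-/-, against 0.272 ± 0.0743 CPM in WT (log2 fold change 1.5, edgeR adjusted p = 0.00637). The dynamin gene Dnm1 rose by 0.30 on the log2 scale (edgeR adjusted p = 0.0214), and this call was lost without WT library 6 (adjusted p = 0.0513). Of 18 voltage-gated calcium channel genes, the channels that RIM-binding proteins hold in place among them, 1 was called: the T-type channel gene Cacna1g rose to 33.1 ± 3.91 CPM in FXR-/-, against 24.7 ± 2.55 CPM in WT (log2 fold change 0.39, edgeR adjusted p = 0.0165).

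On the receiving side, 2 of 17 AMPA receptor and auxiliary genes besides Shisa7 were higher and 4 were lower, with a median of 0.02. Cacng5, an auxiliary subunit of the TARP family, had 2.69, 5.43, 3.0, 5.89 and 6.33 CPM in FXR-/- libraries 8 to 12, against 5.82, 12.7, 14.3, 12.8 and 13.1 CPM in WT libraries 3, 4, 5, 6 and 9. WT library 3 lay within the FXR-/- range and the other WT libraries lay above it. Cacng5 fell to 4.67 ± 1.70 CPM in FXR-/-, against 11.7 ± 3.38 CPM in WT (log2 fold change -1.36, edgeR adjusted p = 0.00851). The related Cacng7 fell by 0.49 on the log2 scale (edgeR adjusted p = 0.0136) and Abhd6, a lipase that binds AMPA receptor subunits, fell by 0.33 (adjusted p = 0.0162).

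The rest of the Shisa family moved less and in both directions. Besides Shisa7, 9 of 10 Shisa and Shisa-like genes were tested, and 1 was higher and 1 lower, with a median of -0.03. Shisa8 had 68.7 ± 9.26 CPM in FXR-/- and 92.7 ± 15.7 CPM in WT (log2 fold change -0.47, edgeR adjusted p = 0.0270), and this call was lost without FXR-/- library 11, FXR-/- library 12 or WT library 4. Shisa9 had 0.785 ± 0.136 CPM in FXR-/- and 0.365 ± 0.190 CPM in WT (log2 fold change 1.05, edgeR adjusted p = 0.0431), opposite in sign to Shisa7, a call lost when any 1 of 7 libraries was left out. Shisa6, an AMPA receptor partner too, had 32.7 ± 8.30 CPM in FXR-/- and 34.1 ± 3.93 CPM in WT (log2 fold change -0.09, edgeR adjusted p = 0.726). Shisa2, Shisa3, Shisa4, Shisa5, Shisal1 and Shisal2a did not pass, with log2 fold changes from -0.20 to 0.38, and Shisal2b was below the filter.

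In the list of GABA-A receptors, the inhibitory chloride channels that Shisa7 also contacts, and their anchors, 6 of 15 tested genes were higher and 0 lower, with a median of 0.61, and 6 more were below the filter. All 6 called genes encode receptor subunits, and the tested anchor genes Gphn, Nlgn2 and Lhfpl4 were not called. Gabre rose to 6.61 ± 0.550 CPM in FXR-/-, against 4.23 ± 0.287 CPM in WT (SD, n = 5 each, log2 fold change 0.61, edgeR adjusted p = 0.00133). Gabra3 rose to 9.34 ± 1.04 CPM in FXR-/-, against 5.75 ± 0.818 CPM in WT (log2 fold change 0.66, edgeR adjusted p = 0.00418). Gabra4 (log2 fold change 0.60, edgeR adjusted p = 0.0269) and Gabra2 (1.6, adjusted p = 0.0278) were called as well. Of the 6 calls, 2 were left without FXR-/- library 12, without WT library 4 or without WT library 9, and the calls of Gabre and Gabra3 held whichever library was left out.

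Around Pianp, the GABA-B receptor, its partners and the PILR receptors gave 6 tested genes, of which 1 was called. Gabbr1, the GABA-B subunit that Pianp binds, had 96.2 ± 2.13 CPM in FXR-/- and 80.4 ± 9.00 CPM in WT (log2 fold change 0.22, edgeR adjusted p = 0.0472), a call lost when any 1 of 9 libraries was left out. Ajap1, a structural relative of Pianp, had 1.00 ± 0.361 CPM in FXR-/- and 0.790 ± 0.0853 CPM in WT (log2 fold change 0.30, edgeR adjusted p = 0.392). No tested gene of this list besides Pianp had a fitted change of 1 or more on the log2 scale.

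Of 23 postsynaptic scaffold and NMDA receptor genes, 2 were higher and 2 lower, with a median of 0.10. Grin2c, an NMDA receptor subunit gene, had 7.63, 20.2, 15.2, 21.7 and 19.9 CPM in FXR-/- libraries 8 to 12, against 4.31, 5.40, 4.86, 4.24 and 5.47 CPM in WT libraries 3, 4, 5, 6 and 9. The genotypes did not overlap, and library 8 was the lowest FXR-/- library. Grin2c rose to 16.9 ± 5.76 CPM in FXR-/-, against 4.86 ± 0.580 CPM in WT (log2 fold change 1.77, edgeR adjusted p = 0.000877). The scaffold gene Homer3 rose to 24.6 ± 1.07 CPM in FXR-/-, against 14.0 ± 1.06 CPM in WT (log2 fold change 0.78, edgeR adjusted p = 1.5e-05). The scaffold genes Dlgap4 (-0.25, adjusted p = 0.0104) and Dlg2 (-0.48, adjusted p = 0.0175) fell on the log2 scale, Dlg2 not without FXR-/- library 11 (adjusted p = 0.0504).

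Of 22 synaptic adhesion genes 1 was higher and 3 were lower, with a median of -0.01. Cbln2, a secreted organizer of synapses, fell to 1.94 ± 0.409 CPM in FXR-/-, against 3.45 ± 0.398 CPM in WT (log2 fold change -0.86, edgeR adjusted p = 0.00373). Lrrtm1 rose by 1.01 on the log2 scale (edgeR adjusted p = 0.0135), while Slitrk4 (-0.83, adjusted p = 0.0317) and Cadm3 (-0.80, adjusted p = 0.0489) were lower with calls lost when any 1 of 6 and 7 libraries was left out. REST, the repressor that keeps neuronal genes silent outside the nervous system, had 197 ± 5.01 CPM in FXR-/- and 206 ± 8.68 CPM in WT and did not pass (log2 fold change -0.10, edgeR adjusted p = 0.115). Of the 11 genes of its complex, 1 was called, the corepressor gene Rcor1 (-0.22, adjusted p = 0.0296), and not when any 1 of 7 libraries was left out.

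**Figure D3:**
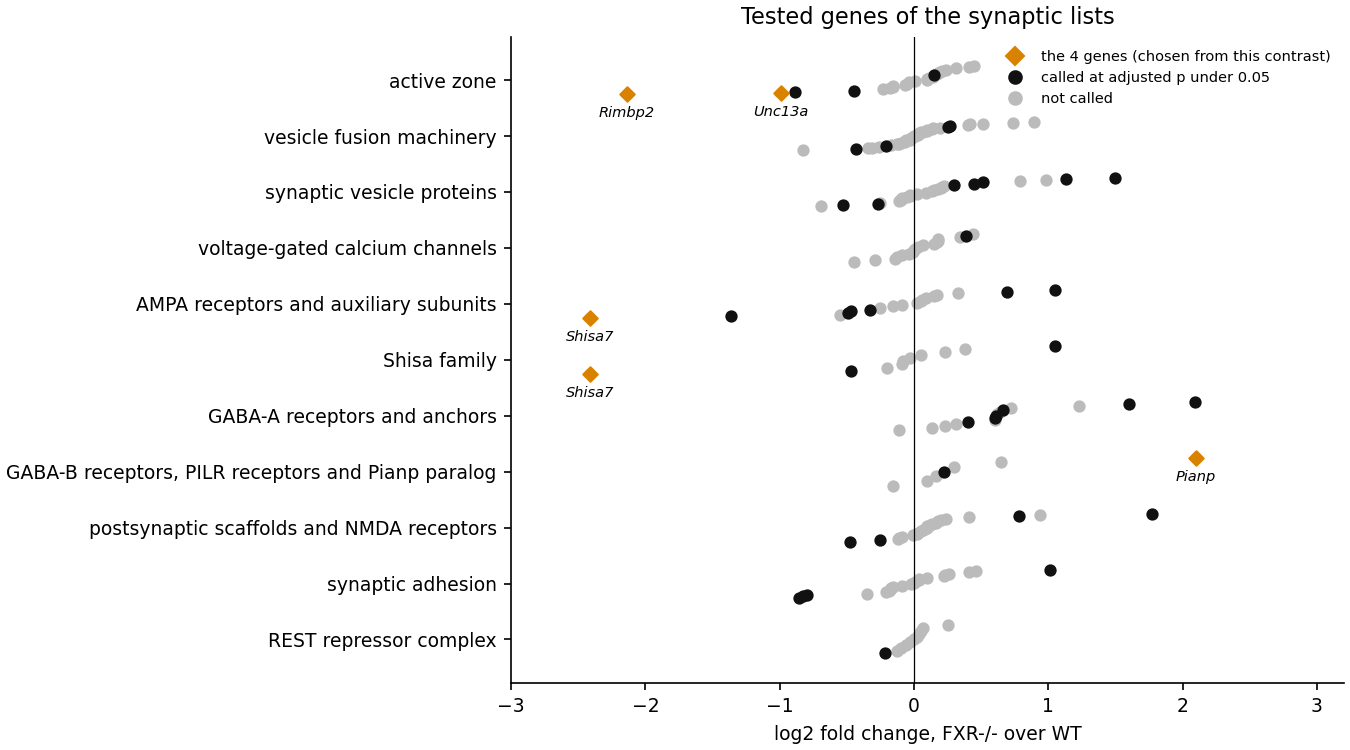
Fitted log2 fold change of FXR-/- over WT (horizontal axis) of each tested gene in the 11 synaptic lists (rows), in black where called at an adjusted p under 0.05 and in grey where not, with Unc13a, Rimbp2, Shisa7 and Pianp as orange diamonds. Called genes lie on both sides of 0, with 21 higher and 16 lower, and the 4 genes lie at -2.41, -2.14, -0.99 and 2.1.

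On the chromosome, the gene next to Shisa7 fell with it. Isoc2b ends 0.263 kb upstream of the Shisa7 start, on the same strand, so the Shisa7 window printed above lies between the genes. It had 1.42, 1.73, 1.87, 1.71 and 1.75 CPM in FXR-/- libraries 8 to 12, against 4.52, 4.74, 5.26, 4.36 and 4.11 CPM in WT libraries 3, 4, 5, 6 and 9. The genotypes did not overlap, and both were level within themselves, unlike Shisa7 in WT. Isoc2b fell to 1.70 ± 0.164 CPM in FXR-/-, against 4.60 ± 0.435 CPM in WT (log2 fold change -1.47, SE 0.112, edgeR adjusted p = 7.37e-06). Isoc2b has a close paralog nearby, Isoc2a, with 26.8 ± 2.68 CPM in FXR-/- and 30.8 ± 2.06 CPM in WT (log2 fold change -0.24, edgeR adjusted p = 0.0650), and how reads that match both were counted is not given in the sources used here. On the other side, Ube2s, a ubiquitin-conjugating enzyme gene 13.0 kb away, had 113 ± 5.97 CPM in FXR-/- and 122 ± 8.93 CPM in WT and did not pass (log2 fold change -0.16, edgeR adjusted p = 0.0663).

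The other nearest tested genes that do not overlap the 4 genes had smaller fitted changes. Piwil1, a germ cell gene of the piRNA pathway 2.32 kb from the Rimbp2 end, had 4.97 ± 1.39 CPM in FXR-/- and 7.29 ± 0.847 CPM in WT (log2 fold change -0.59, edgeR adjusted p = 0.0398), a call lost when any 1 of 7 libraries was left out. Stx2, 31.1 kb to the other side of Rimbp2, stood at 0.01 (edgeR adjusted p = 0.946). Fam129c, 16.5 kb from Unc13a, fell by 0.52 on the log2 scale (edgeR adjusted p = 0.00514), and Jak3, a cytokine receptor kinase gene 4.54 kb from the Unc13a start, stood at 0.04 (edgeR adjusted p = 0.863). Beside Pianp, the signalosome gene Cops7a at 31.2 kb rose by 0.21 (edgeR adjusted p = 0.0136), and the zinc finger gene Zfp384 at 6.05 kb stood at -0.05 (edgeR adjusted p = 0.386).

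Within 500 kb, 10 of 36 tested genes around Shisa7 were called (27.8%), 3 higher and 7 lower, with a median log2 fold change of -0.09. Around Unc13a 11 of 36 were higher and 3 lower (38.9%, median 0.05), around Pianp 4 of 47 were higher and 3 lower (14.9%, median 0.06), and around Rimbp2 0 of 7 were higher and 2 lower (28.6%, median -0.26), beside 13.9% of all tested genes. Eps8l1, a gene of the actin cytoskeleton within 500 kb of Shisa7, was named after its values were seen. It had 0.393, 0.713, 0.757, 1.18 and 1.10 CPM in FXR-/- libraries 8 to 12, against 10.4, 2.77, 1.08, 6.91 and 5.20 CPM in WT libraries 3, 4, 5, 6 and 9. WT library 5 lay inside the FXR-/- range and the other WT libraries lay above it (log2 fold change -2.69, edgeR adjusted p = 0.00658).

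**Figure D4:**
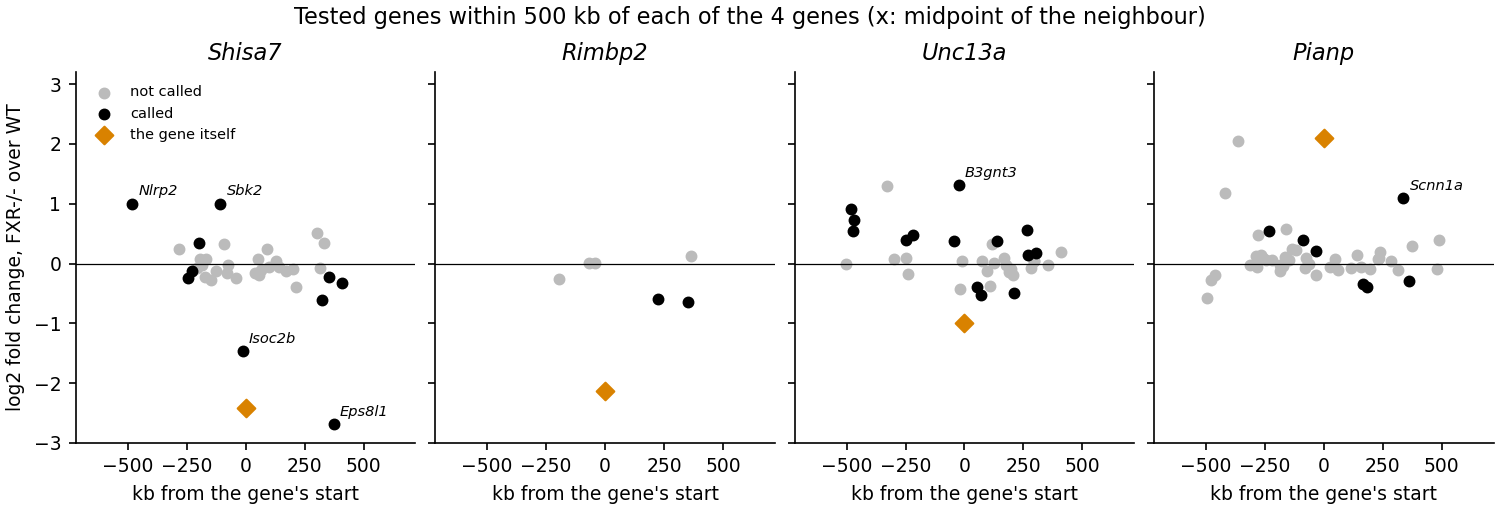
Fitted log2 fold change of FXR-/- over WT (vertical axis) of tested genes within 500 kb of each of the 4 genes, against the distance of the neighbour's midpoint from the gene's start in kb (positive is downstream). Black points were called, grey points were not and the orange diamond is the gene itself; Isoc2b (-1.47) lies beside Shisa7.

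Across the 10 libraries, likeness between genes was measured as the root mean square difference of log2 CPM values centred on each gene's own mean, among 15683 tested genes that averaged 1 CPM or more. Shisa7 and Rimbp2 were 0.30 apart on this scale, Unc13a was 0.70 from Shisa7 and 0.67 from Rimbp2, and Pianp was 1.59 to 2.22 from the other 3. These distances follow first of all from the size of the genotype difference that chose the genes. Among the genes most like Shisa7 were Olfml3 (0.27), which encodes a secreted olfactomedin-domain protein and the noncoding 5031434O11Rik (0.28). Olfml3 had 16.4 ± 1.64 CPM in FXR-/- and 66.4 ± 3.13 CPM in WT (SD, n = 5 each). The nearest to Rimbp2 were 5031434O11Rik (0.36), Olfml3 (0.42) and Lair1 (0.43), a collagen receptor gene of immune cells. Lair1 was 0.31 from Shisa7 and lies 0.762 Mb from it on the same chromosome. Both lists held Olfml3 and 5031434O11Rik. Olfml3 ran from 61.7 to 69.6 CPM over the WT libraries, a narrower span than that of Rimbp2.

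Unc13a, with the smallest fitted change of the 4 genes (log2 fold change -0.99), had close companions. Distances to companions also follow first of all from the size of the genotype difference that chose the genes. Fbxo17, an F-box protein gene, was 0.11 from it, with 25.7 ± 3.72 CPM in FXR-/- and 49.9 ± 5.06 CPM in WT, Zfp868 was 0.13 away and the phosphatase gene Ppm1e 0.14. FXR-/- library 8 was the lowest FXR-/- library for Fbxo17, at 19.5 CPM, as it was for Unc13a. Library 8 entered the distance by which Fbxo17 was chosen, so nothing is read from this match. Zfp868 lies on the same chromosome, 2.0 Mb from Unc13a. The genes most like Pianp were the calcium release channel gene Ryr3 (0.35), the selenium-binding protein gene Selenbp2 (0.36) and C030037D09Rik (0.38). Ryr3 had 17.1, 17.3, 12.0, 16.2 and 15.1 CPM in FXR-/- libraries 8 to 12, against 2.80, 4.09, 4.14, 4.42 and 4.29 CPM in WT libraries 3, 4, 5, 6 and 9, and so lacked the step between FXR-/- libraries 8 and 9 and the rest that Pianp showed.

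**Figure D5:**
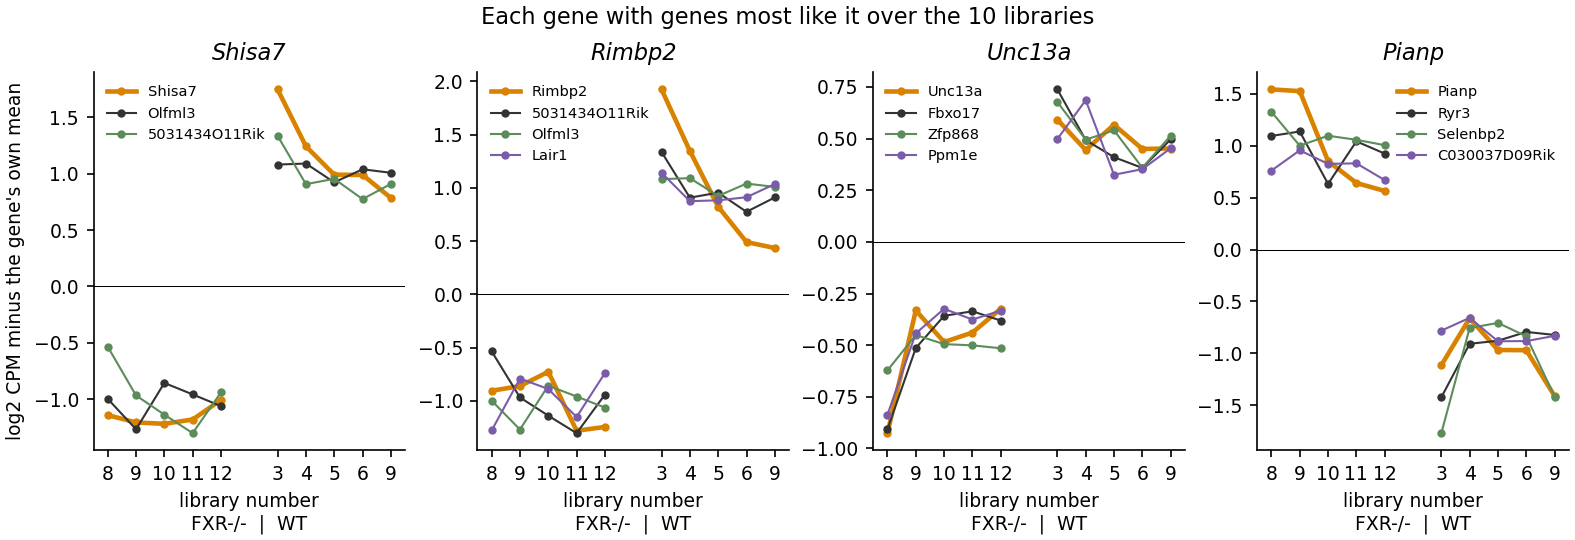
Log2 CPM minus the gene's own mean (vertical axis) in FXR-/- libraries (left) and WT libraries (right) for each of the 4 genes (thick orange line) and genes most like it, 2 for Shisa7 and 3 for the others. The panel of Unc13a, the gene with the smallest genotype difference, is the tightest, at 0.11 to 0.14, and the Pianp panel is looser, at 0.35 to 0.38.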

How the data were processed

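Messenger RNA was measured in whole testes of 10 mice. Per the labels' protocols, RNA of flash-frozen testes went into Illumina TruSeq RNA libraries. Per the submitters' processing notes, FastQC 0.10.1, CASAVA, Bowtie, TopHat2 2.0.10, Bowtie2 2.1.0 and the build mm10 were used. Not given in the sources used here were the read counter, the annotation and the use of strand. The deposited table gave the authors' raw counts per gene, the input of every result. The authors' normalized columns had lost their decimal marks and were not used, and 0 columns belonged to other samples.

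Of the genes, 30212 were matched by identifier to GENCODE M21 for positions and exon lengths. Libraries were grouped by the genotype label. CPM values are counts scaled to a common library total, and log2 CPM uses TMM-scaled totals and a prior count of 2. Genes passing filterByExpr (18559) were tested between genotypes with edgeR 4.0.16 in R 4.3.3 (TMM factors, a two-sided quasi-likelihood F-test, p adjusted by Benjamini-Hochberg over all tested genes) and called at an adjusted p under 0.05, and fold changes are FXR-/- over WT. The script was tested on simulated data. Alternatives were DESeq2 1.42.0, other scaling factors, no filter, leaving out each library in turn, and 3 added after seeing the data.

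The 4 genes and all lists were chosen with earlier results of these data known. Named genes were the 4 genes, their families, in each list the 4 called genes of smallest p (the 2 most abundant if no gene was called), the 3 genes most like each, the nearest tested gene on each side that does not overlap them and Nr1h4. Genes named outside this rule are Eps8l1, Colgalt1 and Isoc2a, chosen for position, and Gabrg1 and Synpr, chosen for the size of their change. Others are Lin7c, Rest, the anchor genes of the GABA-A list, and cell type markers. All genes named outside the rule were chosen with their values seen. A few genes that the rule named are not reported here.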

Additional observations from a re-analysis of the deposited data

Results flagged for a closer look

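In 124 groups of 5 libraries (62 named genes in each genotype), 1 library stood apart from the other 4 by Dixon's criterion in 9 groups, or 7.26%. Chance gives about 1 in 20 for independent groups. These genes share the same libraries and some were chosen for likeness to each other, so the 2 shares cannot be compared. All values are log2 CPM.

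Unc13a was lowest in FXR-/- library 8, at 3.48, where the other FXR-/- libraries ran from 3.92 to 4.08. Ppm1e, one of the genes most like Unc13a, was lowest in the same library, at 4.08 against 4.47 to 4.59 in the others. It was chosen for likeness over all libraries, library 8 included, so this match was favoured by the choice. Shisa9 was lowest in FXR-/- library 12 at -0.75 (others -0.26 to -0.13), Gabra3 in FXR-/- library 9 at 2.91 (others 3.27 to 3.30) and Fam129c in FXR-/- library 10 at 2.94 (others 3.17 to 3.21). In WT, library 3 was lowest for Cacng5 at 2.58 (others 3.68 to 3.86) and for Ryr3 at 1.54 (others 2.06 to 2.17). Cacng7 was lowest in WT library 9 at 4.30 (others 4.48 to 4.55). Nr1h4 was highest in WT library 9 at -0.25, where the other WT libraries ran from -1.11 to -0.98.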

How the results depend on the processing

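There were 18 alternatives, of which 3 were chosen after seeing the data. Over these, log2 fold changes ranged from -2.50 to -2.22 for Shisa7 and -2.30 to -1.73 for Rimbp2. For Unc13a they ranged from -1.05 to -0.88 and for Pianp from 1.93 to 2.21. The 4 genes were chosen for this contrast and their genotypes did not overlap, so a kept sign was given in advance. These ranges are a description. Leaving out each library in turn gave 1427 to 2867 called genes over all genes and 20 to 38 in the synaptic lists, with a median log2 fold change of the lists of 0.04 to 0.06. That median was 0.09 with library totals alone and 0.07 without FXR-/- libraries 9 and 10, against 0.05. Of the 37 synaptic calls 14 held under all alternatives and 0 reversed. With upper-quartile factors 53.0% of all called genes were higher in FXR-/-, against 44.5%. Library totals alone moved the median of all tested genes to 0.05. No paired analysis was possible because the genotypes share the single library number 9. The causes of these shifts were not tested. With 30 to 38 counts per FXR-/- library, depth limits the precision of the Shisa7 fold.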
